A study of Mus musculus with 15 samples.

Results

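The small leucine-rich proteoglycans studied here are 10 genes of 1 family, Kera (keratocan), Lum (lumican), Dcn (decorin), Bgn (biglycan), Ogn (osteoglycin), Omd (osteomodulin), Fmod (fibromodulin), Prelp (prolargin), Epyc (epiphycan) and Aspn (asporin). They were chosen as a listed family out of 35675 annotated genes, and Kera was chosen because its level was high with F/R/C, so the differences of Kera between cultures with and without F/R/C are described with no test. All 10 passed the filter on low counts, which kept 19331 genes. The libraries were made from mouse embryonic fibroblasts (MEFs) of the genotype Tg:Pax7-nGFP/C57BL6;DBA2, a background that carries a reporter of the muscle stem cell gene Pax7. The MEFs came as 3 lines, each from a separate embryo, and the same 3 lines stand behind all 5 conditions. Of these, +MyoD+F/R/C+CP, +MyoD+F/R/C+SP, +MyoD+F/R/C and +MyoD each received 4 transfections of synthetic mRNA for the muscle transcription factor MyoD and were collected at day 10. F/R/C stands for forskolin, which raises cAMP, RepSox, which inhibits the TGF-β receptor, and CHIR99210, which inhibits GSK3. SP is the JNK inhibitor SP600125 and CP the JAK inhibitor CP690550. The fifth condition was untreated MEFs, which the labels also place at day 10 while another source places them at the start. The transfected cultures also received B18R, a protein that damps the interferon response, and it is not given for MEFs. By the paper's methods, cells for transfection were kept in a medium for induced myogenic progenitor cells, while MEFs were isolated in MEF medium. In a comparison with MEFs the transfection, B18R, medium and time in culture thus cannot be told apart.

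Proteins of this family have a short core built of leucine-rich repeats, are secreted into the extracellular matrix and bind fibrillar collagens, whose fibril diameter and spacing they help to set. Dcn, Bgn and Aspn form the first class of the family, of which Dcn and Bgn carry chondroitin or dermatan sulfate chains. Kera, Lum, Fmod, Prelp and Omd form the second class, in which Kera, Lum, Fmod and Omd carry keratan sulfate, and Epyc and Ogn belong to the third. Kera and Lum are best known from the stroma of the cornea, where keratocytes make them and where they keep collagen fibrils evenly spaced. In skeletal muscle Dcn and Bgn are the familiar members, Dcn as a binder of TGF-β and myostatin and Bgn as a partner of the dystrophin-associated complex.

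The family lay in 3 clusters and 1 single locus of the mouse genome (GRCm38). On chromosome 10, Dcn, Lum, Kera and Epyc followed each other on the plus strand between 97479609 and 97682454, a span of 203 kb. Kera (ENSMUSG00000019932.8) took up 97606879 to 97613692 with 3 exons, 34.2 kb after Lum and 30.4 kb before Epyc. On chromosome 13, Aspn, Omd and Ogn lay between 49544443 and 49624501 within 80.1 kb, inside the gene Cenpp. Prelp and Fmod shared 138 kb of chromosome 1 on opposite strands, from 133910304 to 134048277, and Bgn lay alone on the X chromosome from 73483602 to 73495933.

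RefSeq promoter sequences (GRCm38.p6) were matched by symbol for 8 of the 10 members, with 2 start sites for Epyc, which gave 9 windows of 250 bases before a RefSeq start. The Kera window (chromosome 10, 97606955 to 97607204) and the downstream Epyc window lie inside the genes as GENCODE maps them, and the end of the Prelp window nearest the gene overlaps it. Lum and Dcn were not matched. Each window was searched on both strands for CANNTG, the E-box to which MyoD and related factors bind and which reads the same on either strand, for TGACG, the half-site of the cAMP response element, and for CTTTG, the core of the site of TCF factors. The E-box was in 5 of 9 windows, against 66.2% of all 32851 RefSeq windows of that length. TGACG was in 0 of 9, against 17.8% of all windows, and CTTTG in 6 of 9, against 48.6%. The windows of Kera and Omd held CTTTG at 3 places each and no E-box, and for Kera these places come after the start in GENCODE. The windows of Aspn, Ogn and Bgn are shown as 3 of the 5 with an E-box, which is in capitals, and were chosen after values and matches were seen. The windows of Fmod and Epyc with an E-box are not shown, and the window of Prelp, whose fold of +MyoD over MEFs was like that of Ogn, held none of the 3 motifs.
Aspn, chr13:49544193-49544442, plus strand: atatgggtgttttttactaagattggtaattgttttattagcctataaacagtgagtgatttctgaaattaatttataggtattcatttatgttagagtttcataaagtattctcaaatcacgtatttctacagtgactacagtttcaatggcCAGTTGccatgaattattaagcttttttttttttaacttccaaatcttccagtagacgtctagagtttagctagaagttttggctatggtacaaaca
Ogn, chr13:49607765-49608014, plus strand: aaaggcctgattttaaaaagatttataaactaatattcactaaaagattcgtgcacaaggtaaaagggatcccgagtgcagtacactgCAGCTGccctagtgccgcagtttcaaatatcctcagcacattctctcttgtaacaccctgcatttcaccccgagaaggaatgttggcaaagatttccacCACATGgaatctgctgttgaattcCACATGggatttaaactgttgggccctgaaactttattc
Bgn, chrX:73483351-73483600, plus strand: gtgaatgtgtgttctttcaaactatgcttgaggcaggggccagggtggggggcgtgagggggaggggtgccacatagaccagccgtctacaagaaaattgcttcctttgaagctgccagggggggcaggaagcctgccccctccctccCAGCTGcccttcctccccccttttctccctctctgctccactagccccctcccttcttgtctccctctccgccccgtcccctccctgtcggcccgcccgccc
Aspn and Bgn had 1 E-box each and Ogn had 3, of which 2 were the same letters. These matches describe the letters of the windows and were not tested for binding.

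Each library held between 29393872 and 41885769 estimated counts. Levels within a gene are given as CPM, counts scaled to the library size after TMM correction, and levels between genes as TPM, which also take transcript length into account. A gene is called higher or lower where edgeR's quasi-likelihood test, fitted on all 15 libraries, gave a Benjamini-Hochberg adjusted p of at most 0.05 and a log2 fold change (log2FC) over 0.5 in size. The spread between lines was uneven, with a biological coefficient of variation of 0.29 with CP, 0.35 with SP, 0.34 with +MyoD+F/R/C, 0.49 with +MyoD and 0.21 in MEFs. Y-linked genes summed to 117.4 to 158.6 CPM in line 1, 0.283 to 0.990 in line 2 and 0.644 to 1.44 in line 3. Xist had 0 to 0.181, 342.7 to 529.3 and 305.6 to 511.2 CPM in the same lines. Read by these genes, line 1 was male and lines 2 and 3 were female, so what sets line 1 apart cannot be told from sex. All 8 fibroblast markers of the list used were at 1 CPM or more in MEFs, and all 8 skeletal muscle markers were in each transfected condition. RNA was taken from whole cultures, so fewer cells of a type and less RNA per cell cannot be told apart in any level below.

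**Figure D1:**
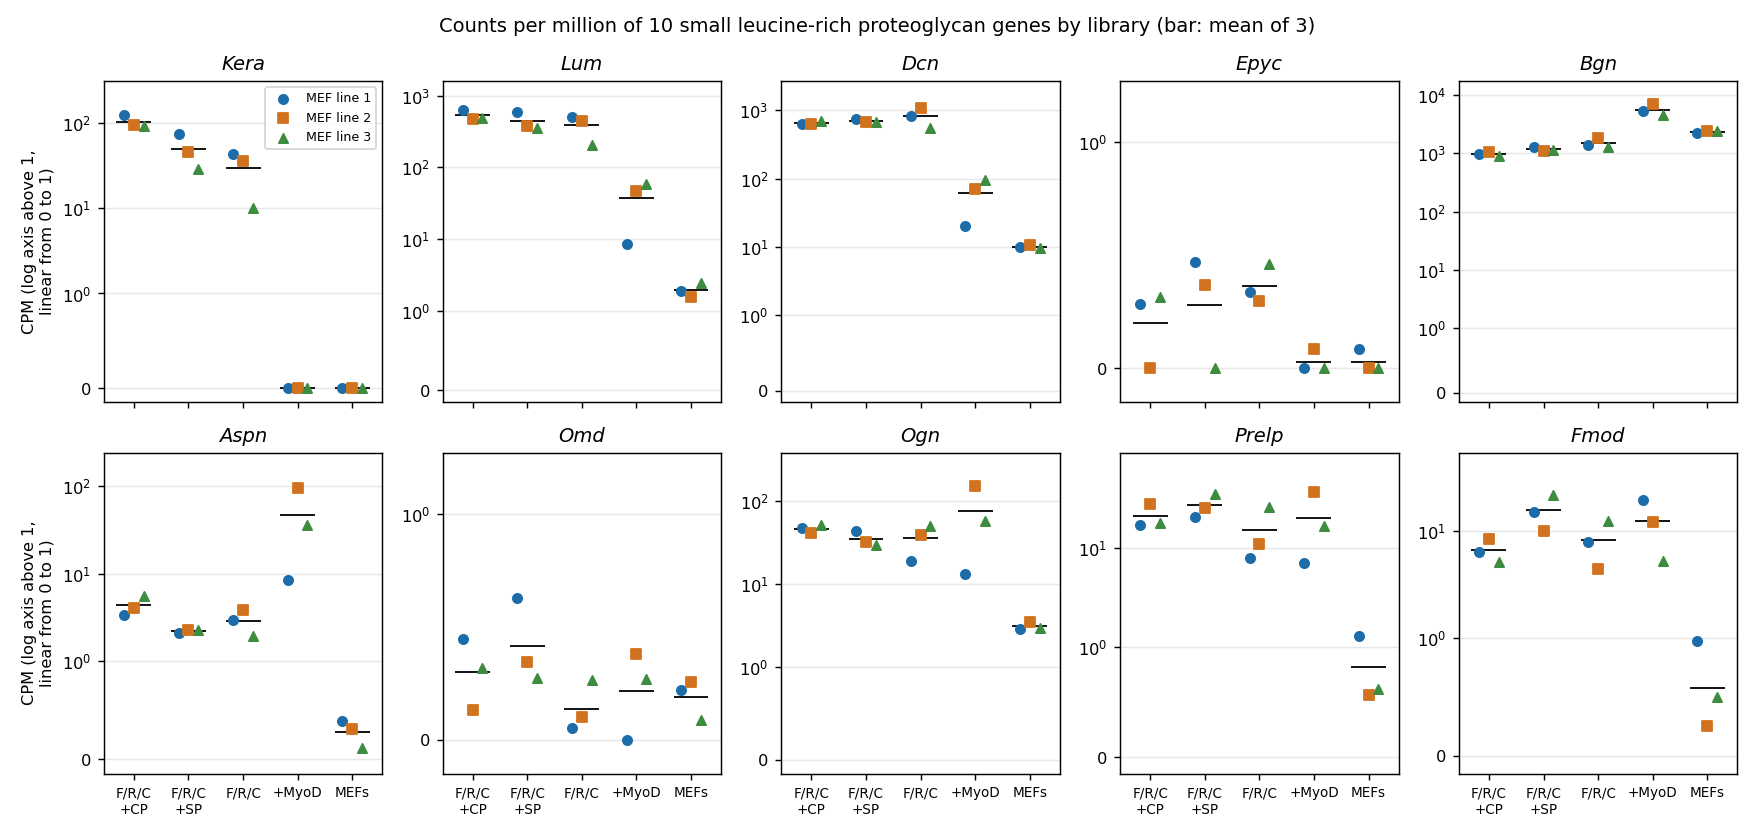
CPM of each member (vertical axis, logarithmic above 1 and linear from 0 to 1) in 15 libraries, with 1 panel per gene, the 5 conditions on the horizontal axis, 1 symbol per MEF line and a bar at the mean of 3. Kera lies between 10.1 and 125.4 CPM in the 9 libraries with F/R/C and at 0 in the 6 without it.

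Kera was read only in cultures that had received F/R/C. With CP, lines 1, 2 and 3 held 5315, 3617 and 2899 counts, with SP 2886, 1992 and 964, and with +MyoD+F/R/C 1680, 1448 and 463. All 3 lines held 0 counts with +MyoD, and all 3 held 0 in MEFs. A count of 0 in all 3 libraries allows up to 0.0300 CPM with +MyoD and 0.0285 CPM in MEFs, taking 3 counts over the group as the limit, which covers counting error only.
In CPM, Kera stood at 43.6, 35.9 and 10.1 in the 3 +MyoD+F/R/C lines, a mean of 29.8 ± 17.5 (SD, n = 3). Against that limit, and with counts pooled over the 3 lines, it was at least 960.1-fold higher than with +MyoD and at least 1012.5-fold higher than in MEFs. These bounds do not hold for each line, since that of line 3 alone would be lower. Leaving out 1 library moved these bounds to between 630.2 (without +MyoD replicate 2) and 1321 (without +MyoD+F/R/C replicate 3) over +MyoD, and to between 667.2 (without MEFs replicate 1) and 1393 (without +MyoD+F/R/C replicate 3) over MEFs. Line 1 had the most Kera and line 3 the least in each of the 3 conditions with F/R/C.

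Of 6 other markers of keratocytes, 4 (Aqp1, Cd34, Chst5 and Ptgds) were called higher with +MyoD+F/R/C than in MEFs and none lower (median log2FC 2.45), where 26.6% of all genes were called higher. Against +MyoD, 1 was called higher and none lower, where 10.9% of all genes were called higher and 8.39% lower. It was Ptgds, a prostaglandin D synthase, at 0.699 ± 0.157 CPM with +MyoD+F/R/C and 0.0291 ± 0.0504 CPM with +MyoD (SD, n = 3 each). Their summed level was 332.0 to 543.8 CPM with +MyoD+F/R/C, 81.9 to 478.7 CPM with +MyoD and 53.4 to 56.1 CPM in MEFs, most of it from the water channel gene Aqp1, which is not particular to keratocytes. Aldh3a1, the crystallin-like aldehyde dehydrogenase of the cornea, had 1.65 ± 0.527 CPM with +MyoD+F/R/C and 1.45 ± 1.26 CPM with +MyoD (SD, n = 3 each). Chst5, which sulfates keratan sulfate in the cornea, had 1.15 ± 0.994 CPM with +MyoD+F/R/C and 2.80 ± 1.53 CPM with +MyoD (SD, n = 3 each). Ptgds was almost absent with +MyoD and at 0 in MEFs. It thus passed the count filter only through libraries with F/R/C, so its calls are not independent of the filter. The part of keratocyte-like cells in the level of Kera was not tested.

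Bgn made up nearly all of the family without F/R/C, while Bgn, Dcn and Lum shared it with F/R/C. The TPM of the 10 genes summed to 1985 ± 28.6 where CP was added, 2107 ± 318.0 where SP was added, 2388 ± 495.8 with +MyoD+F/R/C, 4358 ± 784.6 with +MyoD and 1576 ± 29.5 in MEFs (SD, n = 3 each). Bgn made up 48.2% of this sum with +MyoD+F/R/C, against 95.4% with +MyoD and 99.1% in MEFs. Dcn made up 36.8%, 1.56% and 0.598% in the same conditions, and Lum 12.0%, 0.658% and 0.0822%.
Kera remained a small part, at 4.37% of the sum with CP, 2.04% with SP and 1.01% with +MyoD+F/R/C. In TPM the order with +MyoD+F/R/C was Bgn (1138 ± 169.1), Dcn (890.2 ± 264.0), Lum (291.7 ± 115.3), Ogn (27.7 ± 12.4) and Kera (25.0 ± 14.4; SD, n = 3 each). Bgn was above Dcn within each of the 3 libraries, although their ranges overlapped. Ogn was above Kera in 1 of the 3 libraries, and Lum lay apart from both sides. With CP, Kera (86.9 ± 14.1 TPM) stood in the fourth place, above every Ogn library (35.2 ± 3.43 TPM), whereas with SP Kera (44.6 ± 24.3 TPM) and Ogn (30.7 ± 12.5 TPM; SD, n = 3 each) had overlapping ranges, with Kera the higher in 3 of 3 libraries. With +MyoD the places after Bgn were taken by Dcn (65.2 ± 40.2 TPM), Ogn (54.9 ± 51.0), Aspn (38.9 ± 36.1) and Lum (27.7 ± 19.1), with overlapping ranges (SD, n = 3 each). In MEFs Bgn had 1563 ± 30.2 TPM and the next gene, Dcn, 9.43 ± 0.395 TPM (SD, n = 3 each).

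**Figure D2:**
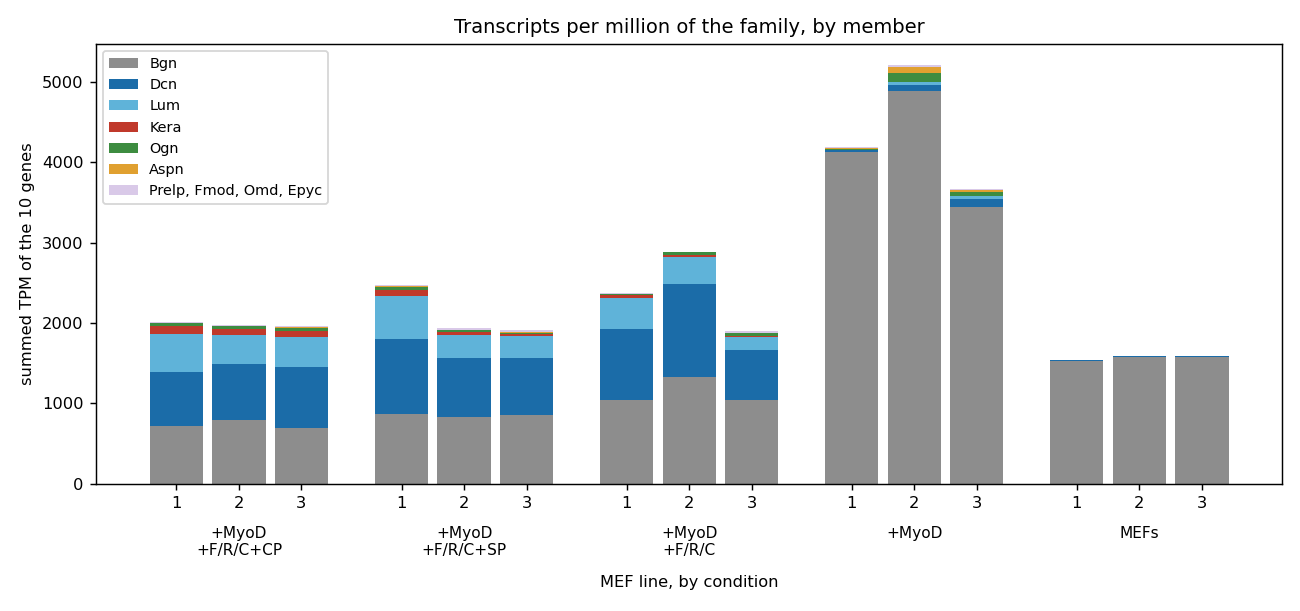
TPM of the family (vertical axis) as stacked bars, 1 bar per library, grouped by condition, with a colour for each member except Prelp, Fmod, Omd and Epyc, which share one. On average Bgn fills 48.2% of the bar with +MyoD+F/R/C, where Dcn (36.8%) and Lum (12.0%) take up most of the rest, against 99.1% in MEFs.

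The first comparison, +MyoD against MEFs, asks what went with transfection of MyoD mRNA without F/R/C, together with B18R, medium and time in culture. It left Kera and Epyc at or under the limit of 3 counts in both groups, so 8 members could be counted. Of these 7 were called higher and 0 lower with +MyoD, against 22.8% of all genes called higher and 18% called lower, and 1 (Omd) was not called. Of all genes, 40.8% were called in either direction. The median log2FC of the 8 members was 4.33, against 0.12 over all genes tested. The groups did not overlap for 7 of the members, against 51.3% of all genes.
Aspn, a collagen-binding member known from cartilage and the periodontal ligament, had the highest fold. It had 8.55, 95.3 and 36.05 CPM in lines 1, 2 and 3 with +MyoD, against 0.389, 0.311 and 0.117 CPM in MEFs. The log2FC was 7.39 (SE 0.78, edgeR adjusted p = 1.9e-06), with every +MyoD library above every MEF library and line 1 far below the other +MyoD lines.
Ogn, a small member first known from bone, had 13.3, 153.3 and 58.3 CPM with +MyoD, against 2.92, 3.54 and 2.99 CPM in MEFs (log2FC 4.57, SE 0.64). Prelp, which links basement membranes to the matrix, had 7.08, 36.3 and 16.7 CPM with +MyoD, against 1.28, 0.566 and 0.615 CPM in MEFs (log2FC 4.602, SE 0.62). In both, as in Aspn, line 2 had the most and line 1 the least.
Lum had 8.40, 47.0 and 57.5 CPM with +MyoD, against 1.89, 1.56 and 2.46 CPM in MEFs (log2FC 4.26, SE 0.57). Dcn had 20.3, 71.2 and 95.1 CPM with +MyoD, against 9.84, 10.7 and 9.75 CPM in MEFs (log2FC 2.62, SE 0.39). Line 1 was again the lowest of the +MyoD lines, and its Dcn was 2.07 times that of its own MEFs, against 9.75 times in line 3.
Fmod, a keratan sulfate member of tendon and cartilage, went the other way among lines, with 19.7, 12.0 and 5.25 CPM with +MyoD, against 0.973, 0.255 and 0.498 CPM in MEFs (log2FC 4.41, SE 0.59). Bgn had 5414, 7027 and 4619 CPM with +MyoD, against 2210, 2435 and 2404 CPM in MEFs (log2FC 1.28, SE 0.16), the lowest fold of the 7 called members. The adjusted p of Ogn, Prelp, Lum, Dcn, Fmod and Bgn lay between 1.1e-05 (Bgn) and 5.6e-05 (Dcn) in edgeR's quasi-likelihood test.
Fibroblast markers moved with this difference. The 8 markers summed to 12725, 43662 and 20290 CPM in lines 1, 2 and 3 with +MyoD, against 3675, 4373 and 3304 CPM in MEFs, and 7 of the 8 were called higher with +MyoD. Much of this sum with +MyoD came from the collagens Col1a1 (11743 ± 9408 CPM) and Col3a1 (4876 ± 2452 CPM; SD, n = 3 each). With Col1a2 these are matrix genes that also stand in the list of collagens below. Line 1, the lowest in this sum, was also the lowest +MyoD line for Aspn, Dcn, Lum, Ogn and Prelp, and not for Fmod and Bgn. The share of all genes for which line 1 was the lowest was not counted. The tenocyte list, of 5 markers, summed to 137.0, 671.8 and 295.5 CPM with +MyoD, against 54.1, 67.3 and 54.9 CPM in MEFs. The part of these cell types in the levels of the family was not tested.

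The comparison of +MyoD+F/R/C with +MyoD asks what the small molecules added, and it split the family. Of the 9 members other than Kera, Lum and Dcn were called higher and Bgn and Aspn lower with +MyoD+F/R/C than with +MyoD. The 2 called higher compare with 10.9% of all genes called higher and the 2 called lower with 8.39% of all genes called lower, and 19.3% of all genes were called in either direction. The median log2FC of the 9 was −0.58, against 0.03 over all genes. The groups did not overlap for 5 of the 9 (these 4 and Epyc), against 33.5% of all genes. Epyc passed the count filter only through libraries with F/R/C, so its lack of overlap is not independent of the filter.
Lum, the keratan sulfate partner of Kera in the cornea, had 501.7, 442.4 and 202.6 CPM in lines 1, 2 and 3 with +MyoD+F/R/C, against 8.40, 47.0 and 57.5 CPM with +MyoD. It rose in all 3 lines, by a log2FC of 3.34 (SE 0.52, edgeR adjusted p = 3.2e-04), and the groups did not overlap. Line by line the folds were 59.8, 9.41 and 3.53, so the size of the rise differed widely between lines.
Dcn had 829.5, 1078 and 552.4 CPM with +MyoD+F/R/C, against 20.3, 71.2 and 95.1 CPM with +MyoD. It rose by a log2FC of 3.72 (SE 0.40, edgeR adjusted p = 1.8e-05), with folds of 40.8, 15.1 and 5.81 in the 3 lines. In both genes line 1 had the highest fold, and its +MyoD library was the lowest of its group.
Bgn had 1391, 1827 and 1299 CPM with +MyoD+F/R/C, against 5414, 7027 and 4619 CPM with +MyoD. It fell by 1.92 on the log2 scale (SE 0.16, edgeR adjusted p = 2.5e-06), and here the lines went together, at 0.257, 0.260 and 0.281 times their +MyoD level. Its level was also lower than in MEFs (log2FC −0.64, SE 0.16, edgeR adjusted p = 0.0030).
Aspn had 2.96, 3.86 and 1.95 CPM with +MyoD+F/R/C, against 8.55, 95.3 and 36.05 CPM with +MyoD. It fell by 4.00 on the log2 scale (SE 0.63, edgeR adjusted p = 3.4e-04), by less in line 1 (0.346 times) than in lines 2 (0.0406 times) and 3 (0.0540 times). No +MyoD+F/R/C library reached the lowest +MyoD library. Over 12 alternatives the adjusted p of Lum, Dcn, Bgn and Aspn reached 0.0202, 0.0075, 0.0037 and 0.0193 at most.
The other members with counts were not called. Ogn had 19.1, 39.2 and 49.5 CPM with +MyoD+F/R/C, against 13.3, 153.3 and 58.3 CPM with +MyoD, a log2FC of −1.06 (95% confidence interval −2.23 to 0.11). Its direction rested on 1 library, since it was −1.56 and called without +MyoD replicate 1 (edgeR adjusted p = 0.00595) and 0.0048 without +MyoD replicate 2. Prelp had 7.86, 10.9 and 25.9 CPM with +MyoD+F/R/C, against 7.08, 36.3 and 16.7 CPM with +MyoD (log2FC −0.43, interval −1.51 to 0.65, and 0.33 without +MyoD replicate 2). Fmod had 7.88, 4.38 and 12.4 CPM with +MyoD+F/R/C, against 19.7, 12.0 and 5.25 CPM with +MyoD (log2FC −0.58, interval −1.63 to 0.46). In each of these genes the groups overlapped, and the intervals leave room for changes of more than 0.5 in size.
Epyc and Omd had few counts. Epyc, a member of growth plate cartilage, had 13, 12 and 21 counts with +MyoD+F/R/C, against 0, 3 and 0 counts with +MyoD and 3, 0 and 0 counts in MEFs. The difference from +MyoD was not called (interval of the log2FC −0.29 to 7.54, edgeR adjusted p = 0.19). Omd, a bone member, had at most 24 counts in any of the 15 libraries and was called in no comparison.
Skeletal muscle and fibroblast markers were measured beside this split. The 8 muscle markers summed to 5947 to 9433 CPM with +MyoD+F/R/C, against 1856 to 2212 CPM with +MyoD, and all 8 were called higher. The 8 fibroblast markers, again with the collagens Col1a1, Col1a2 and Col3a1 among them, summed to 14152 to 22819 CPM with +MyoD+F/R/C. With +MyoD they summed to 12725 to 43662 CPM, and 4 were called higher and 1 lower with +MyoD+F/R/C. Their part in the levels of the family was not tested.

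**Figure D3:**
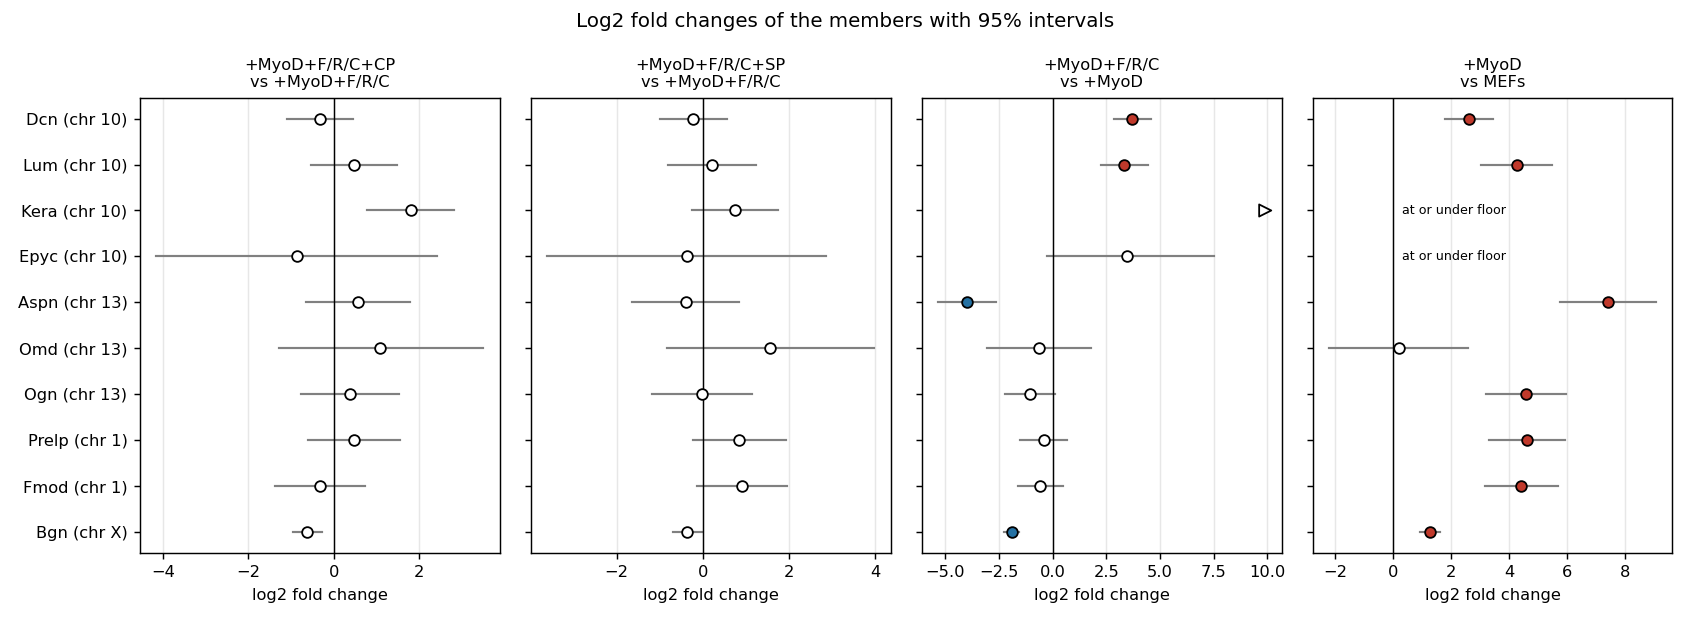
Log2FC (horizontal axis, a scale of its own in each panel) of the 10 members (vertical axis, ordered by chromosome) in 4 comparisons, with 95% confidence intervals as lines. Red marks a gene called higher, blue one called lower and white one not called. The open triangle is the lower bound of Kera from counts pooled over the lines (at least 960.1-fold), and members at or under 3 counts in both groups have no point. In the panel of +MyoD+F/R/C against +MyoD, Dcn (3.72) and Lum (3.34) lie right of 0 and Aspn (−4.00) and Bgn (−1.92) left of it.

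By position, Lum and Dcn on chromosome 10 were called higher with +MyoD+F/R/C than with +MyoD, and Aspn on chromosome 13 and Bgn on X lower. No other member that was tested was called, and the log2FC of Ogn, Omd and Prelp changed sign without +MyoD replicate 2. The genes on either side of the chromosome 10 cluster were Btg1, an antiproliferative gene that lies 857 kb before Dcn, and Ccer1, 10.6 kb after Epyc. Btg1 was called higher with +MyoD+F/R/C (197.2 ± 17.0 CPM) than with +MyoD (113.7 ± 12.4 CPM; SD, n = 3 each), by a log2FC of 0.80, and Ccer1 had 0 counts in all libraries of these conditions and of MEFs. Beside the chromosome 1 pair, Optc, a related proteoglycan 2.30 kb from Prelp, was called lower (log2FC −1.80, SE 0.46, edgeR adjusted p = 0.011), while Prelp was not called. Cenpp, which overlaps the chromosome 13 cluster, and Ecm2, 11.7 kb before Aspn, were not called (log2FC 0.84, interval −0.31 to 2.001, and −0.83, interval −2.90 to 1.23).

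The third comparison set +MyoD+F/R/C against MEFs. Of the 9 members other than Kera, 6 were called higher, against 26.6% of all genes, and 1 (Bgn) lower, against 21.6% of all genes, and 48.2% of all genes were called in either direction. The groups did not overlap for 8 of the 9, against 63.9% of all genes, and the median log2FC was 3.55, against 0.19 over all genes. Epyc is among these 8, and the median is its own log2FC. It passed the count filter only through libraries with F/R/C, so these values of Epyc are not independent of the filter. The 6 had log2FC of 7.60 (Lum), 6.34 (Dcn), 4.18 (Prelp), 3.83 (Fmod), 3.51 (Ogn) and 3.40 (Aspn). For Lum that is a mean of 382.2 ± 158.4 CPM with +MyoD+F/R/C, against 1.97 ± 0.456 CPM in MEFs (SD, n = 3 each). The comparison shares its libraries with both others, so its values are not further evidence for either.

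The estimates for Dcn were divided over its transcripts differently with and without F/R/C. Of its 5 annotated transcripts, Dcn-201 (ENSMUST00000105287) and Dcn-202 (ENSMUST00000163448) have 8 exons each and share 7 of them. They differ in the first exon, which is 181 bases long in both and untranslated, and which lies at 97479609 to 97479789 of chromosome 10 in Dcn-201 and 2758 bases further on, at 97482367 to 97482547, in Dcn-202.
Dcn-202 took up 35.9, 29.5 and 29.0% of the TPM of both in lines 1, 2 and 3 with +MyoD+F/R/C, against 0, 0 and 0% with +MyoD. In MEFs it was given 0, 0 and 0.0014%. Its share with SP was 18.7, 16.2 and 23.2% and with CP 17.4, 17.6 and 19.2%, so every library with SP or CP lay below every +MyoD+F/R/C library and above every library without F/R/C.
The mean share was 31.5 ± 3.85% with +MyoD+F/R/C and 0% with +MyoD, a difference of 31.5 points (exact permutation test over libraries, two-sided p = 0.1, the smallest that 3 against 3 allows). SP cultures averaged 19.4 ± 3.54% and CP cultures 18.1 ± 0.960% (SD, n = 3 each). These shares were lower than that with +MyoD+F/R/C, by differences of −12.1 and −13.4 points (exact permutation p = 0.1 each). CP minus SP was −1.30 points (exact permutation p = 0.8). With the comparison against MEFs (p = 0.1) these were 5 exact permutation tests, and adjusted over the 5 (Benjamini-Hochberg) the p of 0.1 becomes 0.125. The transcripts were looked at after their values were seen. The test also took the libraries as independent, although the same 3 lines stand behind all conditions. Paired by line, the smallest possible p would be larger, so no conclusion is drawn from these p.
In TPM, Dcn-202 had 319.9, 340.0 and 181.2 in lines 1, 2 and 3 with +MyoD+F/R/C, and Dcn-201 had 571.0, 811.4 and 443.7. With +MyoD, Dcn-201 had 22.1, 71.8 and 101.6 TPM and Dcn-202 none. Every +MyoD+F/R/C library thus lay above every +MyoD library for both transcripts. Kallisto assigns a read to a transcript by estimate, and only reads that touch the first exon tell these transcripts apart, so the number of reads behind a share of 0 is unknown and no limit is given for it.

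**Figure D4:**
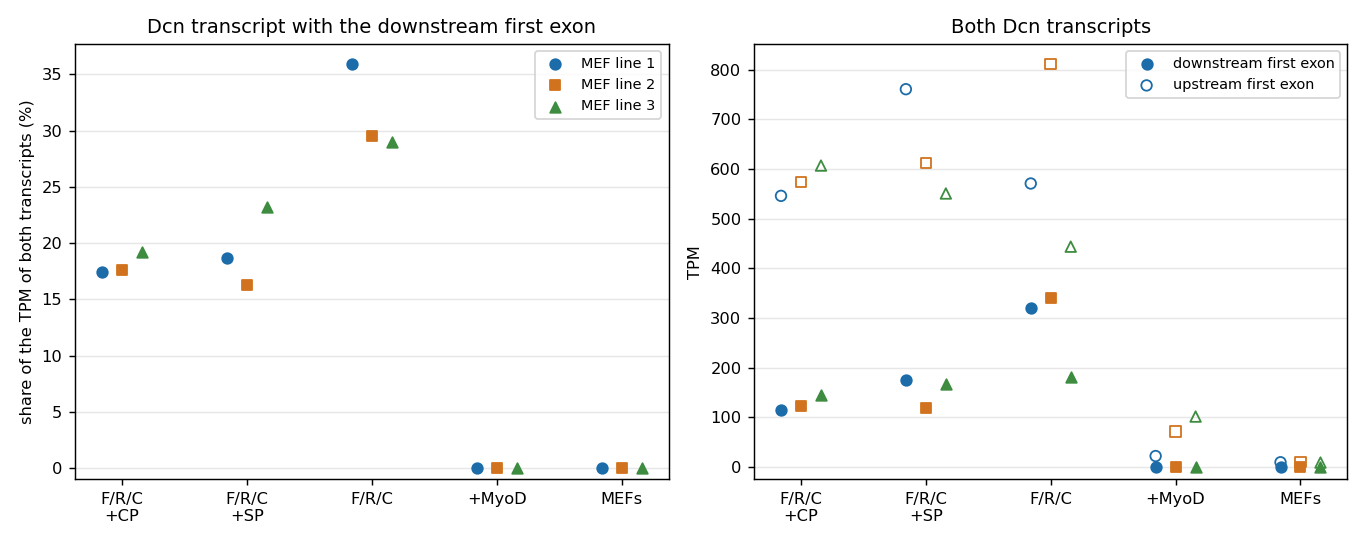
Left, share of Dcn-202, the transcript with the downstream first exon, in the TPM of Dcn-201 and Dcn-202 (percent, vertical axis) by condition. Right, TPM of Dcn-202 (filled) and Dcn-201 (open). Each symbol is 1 library. The share is 17.4 to 19.2% with CP, 16.2 to 23.2% with SP, 29.0 to 35.9% with +MyoD+F/R/C and close to 0 in the 6 libraries without F/R/C.

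The inhibitors of JNK and JAK were compared with +MyoD+F/R/C to see what each added. No member was called in either comparison, where edgeR's quasi-likelihood test called 0% of all genes with SP and 0.0362% with CP (7 genes, all lower). At an unadjusted p under 0.05 there were 1280 genes with SP and 1529 with CP, and DESeq2 called 66 and 201. The groups did not overlap for 2 members with CP (Kera and Bgn), against 17% of all genes, and for 2 with SP (Bgn and Omd), against 14.2%. The median log2FC of the 10 members was 0.43 with CP and 0.09 with SP, against −0.0003 and −0.0006 over all genes.
Kera was higher with CP than with +MyoD+F/R/C in 3 of 3 lines, at 125.4, 95.2 and 91.9 CPM with CP, against 43.6, 35.9 and 10.1 CPM with +MyoD+F/R/C. The groups did not overlap. The log2FC was 1.80 (95% confidence interval 0.78 to 2.83, unadjusted p = 0.0026, edgeR adjusted p = 0.28), and blocking on the MEF line gave 2.01 and a call (edgeR adjusted p = 0.0485). Over 13 alternatives the adjusted p ran from 0.0485 to 0.747. Line by line Kera with CP was 2.88, 2.65 and 9.07 times its level without.
With SP, Kera had 75.3, 45.9 and 29.2 CPM, 1.73, 1.28 and 2.88 times the +MyoD+F/R/C level of the same line. The groups overlapped and the log2FC was 0.75 (interval −0.25 to 1.75). CP against SP gave 1.06 for Kera (interval 0.05 to 2.06, edgeR adjusted p = 1.0), higher in 3 of 3 lines. In that comparison no member was called, against 0.197% of all genes (38, all lower). DESeq2 called 97 genes, and at an unadjusted p under 0.05 there were 775. The groups did not overlap for 4 members (Kera, Bgn, Fmod and Aspn), against 11.4% of all genes, and the median log2FC was −0.19, against 0.0023 over all genes.
Bgn was lower in 3 of 3 lines with CP, at 981.3, 1043 and 915.5 CPM, against 1391, 1827 and 1299 CPM with +MyoD+F/R/C, with no overlap. The log2FC was −0.62 (interval −0.96 to −0.28, unadjusted p = 0.0014, edgeR adjusted p = 0.21), and DESeq2 called it (adjusted p = 0.0192). With SP it had 1273, 1117 and 1140 CPM, again below every +MyoD+F/R/C library (log2FC −0.36, interval −0.69 to −0.02).
Lum had 637.7, 464.6 and 489.6 CPM with CP and 596.9, 376.9 and 356.8 CPM with SP, against 501.7, 442.4 and 202.6 CPM with +MyoD+F/R/C. The intervals of its log2FC were −0.54 to 1.49 with CP and −0.80 to 1.23 with SP. Dcn had 624.7, 637.2 and 696.0 CPM with CP and 756.5, 677.4 and 679.4 CPM with SP, against 829.5, 1078 and 552.4 CPM with +MyoD+F/R/C (intervals −1.10 to 0.44 and −0.99 to 0.55). For both genes the groups overlapped, and the intervals include changes of more than 0.5 in size.
Fmod had the lowest log2FC of CP against SP among the members. It had 6.30, 8.32 and 5.07 CPM with CP, against 14.9, 10.0 and 21.7 CPM with SP, lower with CP in 3 of 3 lines and with no overlap (log2FC −1.24, interval −2.30 to −0.19, edgeR adjusted p = 1.0). Aspn had 3.40, 4.11 and 5.51 CPM with CP, against 2.09, 2.30 and 2.27 CPM with SP, higher with CP in 3 of 3 lines and with no overlap (log2FC 0.96, interval −0.28 to 2.21). Ogn and Prelp overlapped between all 3 conditions with F/R/C, between 19.1 and 51.6 CPM for Ogn and between 7.86 and 34.95 CPM for Prelp.

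Lum was the member that went most with Kera among the libraries with F/R/C. Over the 9 libraries with F/R/C, Pearson's r of log2 CPM with Kera was 0.91 for Lum, 0.08 for Dcn, −0.52 for Bgn and 0.60 for Aspn. Over all 15 it was 0.90 for Lum, 0.93 for Dcn and −0.87 for Bgn, with Kera at 0 in 6 of the libraries. These r describe libraries that share lines and depth, with no p.
Over 14318 genes with a mean of at least 1 CPM, the 5 whose log2 CPM was most like that of Kera over the 15 libraries were Tnfrsf19, a receptor of the TNF family (r = 0.992), Slc7a8, an amino acid transporter (0.991), C1ql2, a secreted C1q-like protein (0.989), Pcdh10, a protocadherin (0.985), and P2rx1, an ATP-gated channel (0.982). Dcn was in place 233 and Lum in place 398. By rank (Spearman) the first 5 shared 0 genes with these, and Tnfrsf19 was in place 11.
Tnfrsf19 had 44.3 ± 4.15 CPM with CP, 34.9 ± 4.31 with SP and 24.1 ± 2.92 with +MyoD+F/R/C, against 1.56 ± 0.391 with +MyoD and 1.37 ± 0.391 in MEFs (SD, n = 3 each). It thus had the same order of conditions as Kera, with a level above 0 without F/R/C. With CP, SP and +MyoD+F/R/C, Slc7a8 had means of 129.6, 147.1 and 103.3 CPM and Pcdh10 of 58.2, 53.7 and 60.3 CPM. Neither had the order of Kera, and the ranges of each overlapped between these conditions. P2rx1 had that order, with means of 13.3, 6.05 and 5.35 CPM. C1ql2 was at 0 counts with +MyoD and in MEFs, as Kera was, and at 3.31 ± 0.505, 3.27 ± 1.58 and 2.78 ± 1.40 CPM with CP, SP and +MyoD+F/R/C (SD, n = 3 each).

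The counts that follow, of genes of lists related to the family, stand beside 10.9% of all genes called higher and 8.39% called lower with +MyoD+F/R/C than with +MyoD, and beside 22.8% and 18% for +MyoD against MEFs. Of 15 tested genes of keratan sulfate synthesis, 2 were called higher and 3 lower with +MyoD+F/R/C than with +MyoD (median log2FC −0.34). St3gal1, a sialyltransferase, rose to 382.9 ± 30.03 CPM with +MyoD+F/R/C, against 181.8 ± 42.2 CPM with +MyoD (SD, n = 3 each; log2FC 1.07). Chst2, a GlcNAc sulfotransferase, rose by 0.85 on the log2 scale. Chst1, the sulfotransferase that acts on the galactose of keratan sulfate, fell by 1.70 and Papss2, which makes the sulfate donor, by 1.41 on the log2 scale. With +MyoD against MEFs, 7 of the 15 were called higher and 0 lower.
Of 22 genes of chondroitin and dermatan sulfate synthesis, 1 was called higher and 9 lower with +MyoD+F/R/C than with +MyoD (median log2FC −0.48). Chst15, a chondroitin sulfate sulfotransferase, rose to 134.9 ± 3.95 CPM with +MyoD+F/R/C, against 47.0 ± 19.9 CPM with +MyoD (SD, n = 3 each). The chain-elongating factor Chpf fell by 1.27 and the sulfotransferases Chst7 and Chst12 by 1.19 and 1.11 on the log2 scale. With +MyoD against MEFs, 11 of the 22 were called higher and 0 lower.
Among 13 collagens whose fibrils the family binds, 4 were called higher and 4 lower with +MyoD+F/R/C than with +MyoD (median log2FC 0.26). Col5a3 and Col6a2 rose by 1.31 and 1.17, while the cartilage collagens Col2a1 and Col11a1 fell by 4.19 and 3.80 on the log2 scale. The groups overlapped for Col5a3 and Col6a2, although each was higher in 3 of 3 lines, and did not overlap for Col2a1 and Col11a1. In the same comparison 2 of 5 tested chondrocyte markers (Col2a1 and Comp) were called lower and none higher, and the 8 markers listed summed to 17.1 to 22.6 CPM with +MyoD+F/R/C, against 45.9 to 83.0 CPM with +MyoD, with Matn1 and Snorc at 0 in both groups. Col2a1 is on both lists, and the part of chondrocyte-like cells in these levels was not tested. With +MyoD against MEFs, 12 of the 13 collagens were called higher and Col2a1 lower.
Of 10 proteases that cut these proteoglycans or their propeptides, 1 was called higher and 1 lower with +MyoD+F/R/C than with +MyoD (median log2FC −0.23), shares near those of all genes. They were the tolloid-like proteases Tll2 (5.80 ± 1.25 CPM with +MyoD+F/R/C and 0.941 ± 1.17 CPM with +MyoD) and Tll1 (3.56 ± 1.07 CPM with +MyoD+F/R/C and 59.6 ± 35.5 CPM with +MyoD; SD, n = 3 each). Of 8 other leucine-rich repeat proteoglycans tested, 0 were called higher and 3 lower (Chad, Optc and Tsku, median log2FC −0.84), where Chad had 0 counts in all 3 +MyoD+F/R/C libraries, against 36 in total with +MyoD. Of 25 other proteoglycan core proteins, 6 were called higher and 8 lower (median log2FC −0.14). Among them Prg4, the lubricating proteoglycan of joints, fell to 2.43 ± 0.825 CPM with +MyoD+F/R/C, against 63.4 ± 41.4 CPM with +MyoD (SD, n = 3 each). Spock1, Ncan and Srgn were called higher with log2FC of 5.16, 4.49 and 4.30. Their levels with +MyoD+F/R/C were 11.1 ± 9.07, 2.11 ± 2.29 and 1.47 ± 0.830 CPM (SD, n = 3 each). With +MyoD these 3 genes had few counts, 30, 9 and 7 in total. No gene of these 6 lists was called with SP or CP against +MyoD+F/R/C, where 0% of all genes were called with SP and 0.0362% with CP.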

How the data were processed

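RNA of 15 cultures was measured, 3 MEF lines in each of 5 conditions. The authors prepared stranded poly-A libraries, trimmed single-end reads with fastp 0.20.0 and ran kallisto 0.46.1 against GRCm38.p6. The deposited expected counts (kallisto estimates per transcript, not normalized) and the deposited TPM were both used. Of 121843 transcripts listed, 121104 matched GENCODE M21 by identifier, and the rest carried 0.236 to 0.327% of a library and were left out. Both were summed over the transcripts of a gene, and the counts were then rounded.
Tests used edgeR 4.0.16 (R 4.3.3; glmQLFit and glmQLFTest, TMM, filterByExpr with a minimum count of 10 and a minimum total of 15) in 1 fit of the 15 libraries with no factor besides condition. The code was tried on simulated counts with a common spread and no difference between lines. That trial does not cover the uneven spread and the shared lines of these data. DESeq2 1.42.0 was an alternative, and the authors also used it. Tables and figures used Python 3.11.15. The other alternatives were RLE factors, no count filter, the MEF line as a block, lengthScaledTPM counts, only the 6 libraries compared, the 9 libraries with F/R/C (added after seeing the data), and leaving out each library. Log2 CPM used a prior count of 2.
The replicate number pairs the libraries because the same 3 MEF lines were used in every condition. After subtracting group means, each of the 15 libraries had its best match in its own line, and same-line pairs had a mean correlation of 0.074 (range −0.004 to 0.237).
The members and all lists were chosen with earlier results of these data known. The text names the members, up to 4 called genes per list and comparison with the largest change, the 5 genes most like Kera and the genomic neighbours. Cell type markers were summed, and those named singly were chosen after their values were seen. Intervals and limits cover counting error only where they come from counts of 0.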

Additional observations from a re-analysis of the deposited data

How the results depend on the processing

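Every member called in the comparisons without SP or CP stayed called, in the same direction, under the 12 alternatives tried, and leaving out 1 library moved 1 number of members called, that of members lower with +MyoD+F/R/C than with +MyoD, which was 3 and not 2 without +MyoD replicate 1 (Ogn added, edgeR adjusted p = 0.00595). With the MEF line as a block, 1 member (Kera, log2FC 2.01, adjusted p = 0.0485 from edgeR) was called higher with CP than with +MyoD+F/R/C, and DESeq2 called 1 member lower (Bgn, log2FC −0.62, adjusted p = 0.0192). The block changed no other call. The fit of only 6 libraries called Epyc higher with +MyoD+F/R/C than in MEFs (log2FC 3.55, adjusted p = 0.0198 from edgeR). Epyc passed the count filter only through libraries with F/R/C, so no conclusion is drawn from this call. Ogn with SP against +MyoD+F/R/C, −0.03, turned to 0.10 with the block and to 0.20 with lengthScaledTPM counts. Spearman's rho in place of Pearson's r left 0 of the 5 genes most like Kera. With 1 library left out, 16 log2FC changed sign, none of them called. Against +MyoD, +MyoD+F/R/C gave −1.56 to 0.0048 for Ogn, −1.46 to 0.0467 for Omd and −1.07 to 0.33 for Prelp, and +MyoD against MEFs gave −0.48 to 0.76 for Omd. SP against +MyoD+F/R/C gave −0.0886 to 0.46 for Lum, −0.43 to 0.0295 for Dcn, −0.34 to 0.28 for Ogn and −0.97 to 0.18 for Epyc. CP gave −0.63 to 0.10 for Fmod against +MyoD+F/R/C and −1.05 to 0.10 for Epyc against SP. The cause of these shifts was not tested. Depth limits Epyc and Omd, with at most 24 counts in a library, and the count of genes called with SP or CP moved from 0 and 7 with edgeR to 66 and 201 with DESeq2, and with CP against SP from 38 to 97.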
